A study of Solanum lycopersicum with 8 samples.

Results

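The interaction of the Aft and atv alleles was measured in peel of tomato fruit (Solanum lycopersicum) at the mature green stage, that is, how far the double mutant departed from the sum of the effects of the alleles taken alone. For each probe set it was computed as the change brought by atv in the Aft background, double mutant minus Aft mutant, less the change brought by atv without Aft, atv mutant minus wild type. Values are log2 intensities after quantile normalization, with intensities under a floor of 16 (log2 of 4) set to that floor. A positive interaction places the double mutant above the sum of both single-mutant effects, and a negative one places it below. All 8 arrays of the series entered the contrast, 2 for each of 4 genotypes, and 9493 of 10209 probe sets were tested. The others were 171 control probe sets and 545 that were above the floor on fewer than 2 arrays.

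The wild type was the cultivar Ailsa Craig, and per the labels its peel held no significant anthocyanin. The Aft (Anthocyanin fruit) mutant held a limited amount, in spots, the atv (atroviolacea) mutant held no significant amount, and the double mutant, Aft/Aft atv/atv, was strongly pigmented. All plants grew untreated through winter in a heated greenhouse kept at or above 12 °C, and RNA was taken from peel of green fruit. Replicates are labelled biological, but the labels do not say whether they came from separate plants, so p-values measure the spread between these samples. The labels give no cultivar for the mutant lines. Allele, line background and growing plants therefore go together in each genotype and cannot be told apart, here and in every comparison that follows.

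Anthocyanins are red to blue flavonoid pigments. Chalcone synthase makes the first compound of the flavonoid pathway, and dihydroflavonol reductase commits its products to the anthocyanin branch, whose genes are switched on by complexes of MYB, bHLH and WD40 proteins. Aft is known as a locus brought into tomato from a wild relative that carries MYB activators of this branch. The atv allele is known for the loss of a small MYB that represses it. Combined, they give purple fruit.

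The arrays were alike in quality. Median deposited intensity ranged from 514.5 to 755.4, the r of a replicate pair ran from 0.985 (atv) to 0.995 (wild type), and probe sets at the 3′ end of 3 control transcripts exceeded those at the 5′ end by 0.997 to 1.40 (log2), by 1.33 and 1.21 on the atv arrays. The atv arrays stood apart. Their mean correlation with arrays of the other genotypes was between 0.904 and 0.921, while arrays of the wild type, Aft mutant and double mutant correlated with each other at 0.956 to 0.979. Since atv enters the interaction with the same weight as the other genotypes, whatever sets those 2 arrays apart enters it too, and its part in the results was not tested.

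The effect of atv depended on Aft for a large part of the transcriptome. The interaction was called for 2479 probe sets, 26.1% of those tested, at an adjusted p of 0.05 (limma, 2-sided, Benjamini-Hochberg). It was positive for 1278 (13.5% of those tested) and negative for 1201 (12.7%), so 51.6% of calls were positive. That split depended on the scaling, since with intensities as deposited 1086 probe sets were called and 30.3% of them were positive. The median interaction over all tested probe sets was 0.10, or -0.05 with intensities as deposited. Among calls the median size was 1.19 and the smallest 0.44, and 1565 calls (63.1%) reached at least 1, a doubling or halving relative to the sum of effects. The count also changed as single arrays were left out, to lower or higher values. Such a fit leaves 1 array in a genotype and has fewer residual degrees of freedom, so the change cannot be assigned to that array.

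Taken alone, atv moved many transcripts, and together with Aft it moved few. In the wild-type background atv changed 4044 probe sets (42.6% called), against 584 (6.15% called) in the Aft background. The SD of the atv effect over probe sets was 1.02 without Aft and 0.52 with it, and 1852 probe sets against 545 changed by at least 1. Aft showed the mirror image, with 633 probe sets (6.67% called) changed in the wild-type background and 4333 (45.6% called) in the atv background. Across probe sets the atv effects in the separate backgrounds, which share no array, correlated with r = 0.21 (Spearman 0.25, n = 9493 probe sets, which are not independent). The atv effect in the wild type and the Aft effect in the atv background share the atv arrays, and the remaining pair shares the Aft arrays.

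**Figure D1:**
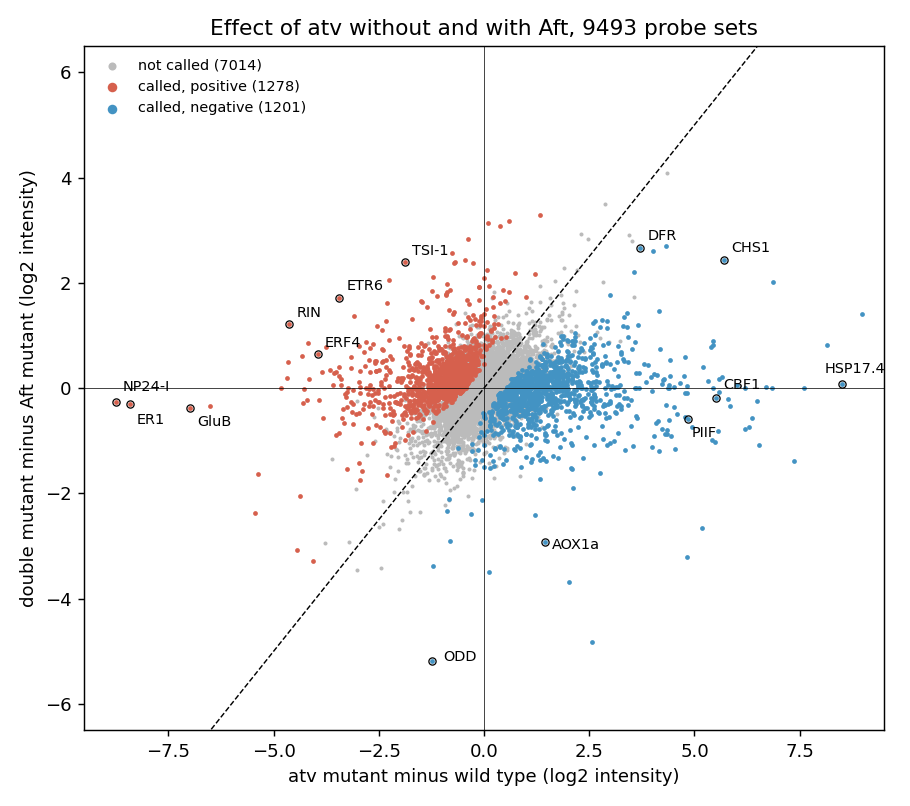
Effect of atv in the wild-type background (x axis, atv mutant minus wild type, log2 intensity) against its effect in the Aft background (y axis, double mutant minus Aft mutant, log2 intensity) for 9493 probe sets; points on the dashed diagonal have no interaction. Grey points were not called, red points (1278) have a positive and blue points (1201) a negative interaction. The cloud is stretched along the x axis, with SD 1.02 against 0.52, and the named genes at its ends, NP24-I at -8.75 and HSP17.4 at 8.52, lie near 0 on the y axis.

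The commonest shape of an interaction was an atv mutant that stood apart from 3 genotypes lying close together. A genotype was counted as standing alone where the gap to the nearest other genotype mean exceeded the range of the other 3. The atv mutant stood alone in 1757 of 2479 calls (70.9%), the highest in 910 and the lowest in 847. Over all tested probe sets it stood alone in 38.6%. The double mutant stood alone in 157 calls (6.33%), the wild type in 117 (4.72%) and the Aft mutant in 31 (1.25%), each below its share of all tested probe sets (12.3%, 5.91% and 4.17%). These shares describe the means and carry no test.

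In 951 calls (38.4%) an atv effect of at least 1 in the wild type was under 0.5 in the Aft background. The reverse, an atv effect of at least 1 with Aft and under 0.5 without it, was seen in 63 (2.54%). Over all tested probe sets these shares were 12.1% and 1.51%. Both patterns require an interaction above 0.5 in size, so a larger share among calls is partly set by their definition. The mean of the double mutant lay nearest to the Aft mutant in 1355 calls (54.7%), to the wild type in 1011 (40.8%) and to the atv mutant in 113 (4.56%). Over all tested probe sets those shares were 43.9%, 30.7% and 25.4%. For 148 calls (5.97%) at least 1 genotype was at the floor on both arrays, and the size of those interactions depends on the floor.

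**Figure D2:**
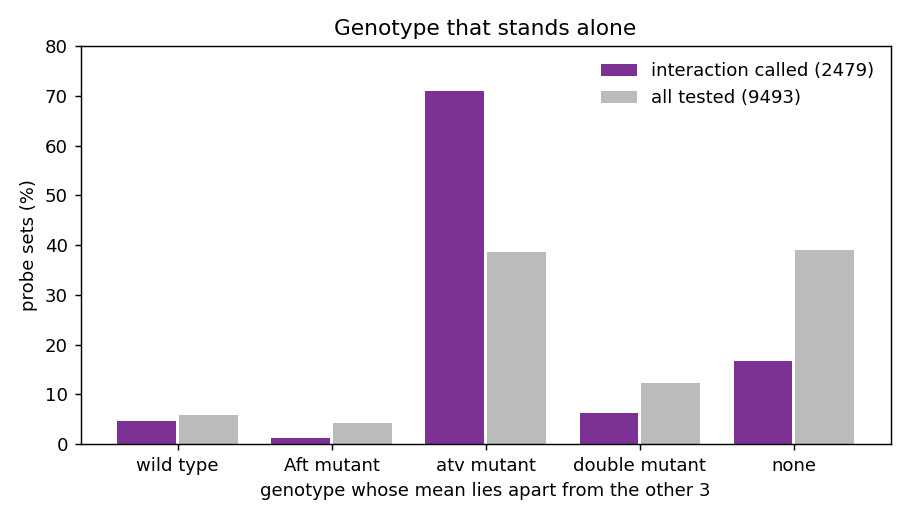
Share of probe sets (y axis, %) in which a genotype stands alone (x axis), for the 2479 interaction calls (purple) and all 9493 tested probe sets (grey). The atv mutant stands alone in 70.9% of calls and 38.6% of all probe sets, while the wild type, Aft mutant and double mutant each take a smaller share of the calls than of all probe sets.

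CHS1 and DFR of the flavonoid pathway rose in both single mutants, and on the log2 scale the double mutant did not reach the sum of both rises. Of 3 measured members of the anthocyanin and flavonoid list, CHS1 and DFR had a negative interaction, none was positive and CHS2 was not called. Over all tested probe sets 12.7% had a negative call and 13.5% a positive one. CHS1, a chalcone synthase, read 7.59 and 7.78 in the wild type, 10.62 and 10.69 in the Aft mutant, 13.35 and 13.41 in the atv mutant, and 13.06 and 13.14 in the double mutant. The genotypes did not overlap, and the atv mutant, whose peel held no significant anthocyanin, had the highest level. The effect of atv was 5.70 without Aft and 2.44 with it, and the interaction was -3.26 (SE 0.15, adjusted p = 7.78e-05, limma).

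CHS2, the other chalcone synthase, was bright everywhere, between 13.28 and 14.10 on the 8 arrays. Its interaction was 0.08 (SE 0.15, 95% interval -0.29 to 0.44, adjusted p = 0.752, limma). With Aft in the wild-type background it fell by 0.52 (adjusted p = 0.0401, limma). The sum of log2 effects for CHS1 would place the double mutant at 16.36, beyond 14.32, the highest value on any array, and the part of that upper limit in the interaction was not tested.

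DFR, dihydroflavonol reductase, was highest in the pigmented genotypes. It was at the floor of 4.0 on both wild-type arrays, at 7.49 and 7.92 in the atv mutant, at 10.57 and 10.77 in the Aft mutant, and at 13.30 and 13.39 in the double mutant. No genotype overlapped another, and the strongly pigmented double mutant lay above the Aft mutant. Its interaction was -1.04 (SE 0.23, adjusted p = 0.0201, limma), and since the wild type was at the floor this is an upper bound that turns with the setting. It was -3.01 with a floor of 1 (adjusted p = 0.108, limma) and 0.96 with a floor of 64 (adjusted p = 0.0188, limma), and the call was lost without either wild-type array, without Aft mutant 2 and without double mutant 1, with values of -1.03 to -0.88 and adjusted p-values of 0.0665 to 0.073 (limma).

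The scale on which effects are summed also decides the direction for DFR. In linear intensity, the wild type averaged 16, the atv mutant 211, the Aft mutant 1635 and the double mutant 10382, so the double mutant exceeded the linear sum of effects, 1830, by 8552. The log2 sum of effects corresponds to 21270, which the double mutant did not reach. In log2 that sum is 14.38, above 14.32, the highest value on any array. CHS1 fell short on either scale, with 8779 in the double mutant against a linear sum of 12097 and a log2 sum of 84001. Over all calls, the linear sign was opposite to the log2 sign in 14 of 2479 (0.565%). For genes that were lower in the single mutants the linear sum can be a negative intensity, as for NP24-I (-1766), GluB (-2644) and RIN (-344). Their linear sign is then positive at any level of the double mutant, so that share is no separate support for the log2 direction. The linear comparison was added after seeing the data and has no test.

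**Figure D3:**
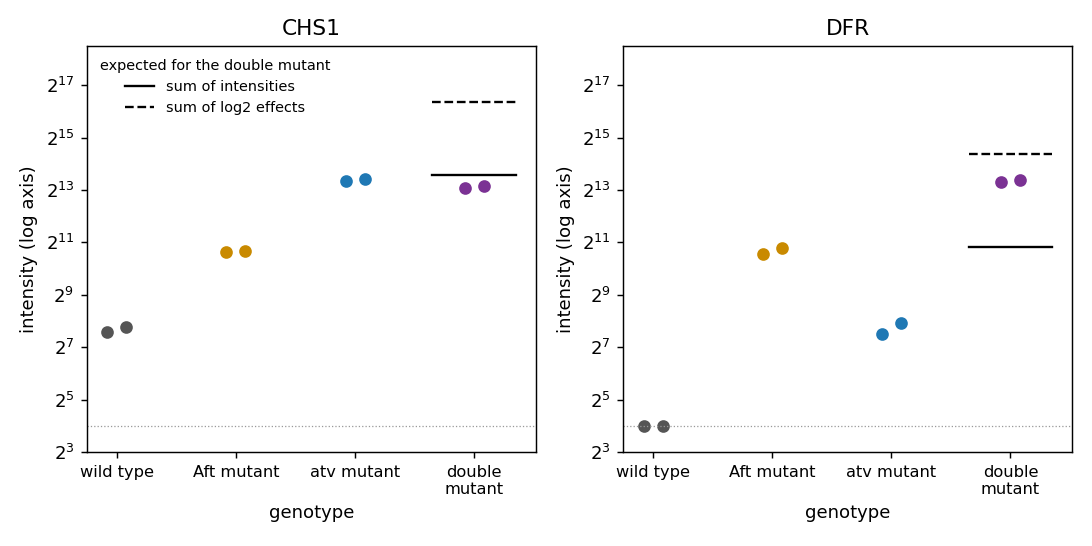
Intensity of CHS1 (left) and DFR (right) on a log axis (y) in each genotype (x), 1 point per array, with the floor dotted. Solid bars mark the level expected for the double mutant if intensities add, dashed bars if log2 effects add. The double mutant lies under both bars for CHS1, and for DFR between them, 10382 against 1830 and 21270.

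Among regulators of the pathway, the MYB activator gene ANT1 could not be compared. Its probe set was at the floor on all 8 arrays, with a highest normalized intensity of 5.56, and it was not tested. Of 4 other MYB genes measured, 1 had a positive interaction and none a negative one, against 13.5% and 12.7% of all tested probe sets. That gene, listed as MYB with the synonym THM18, read 5.34 and 5.64 in the wild type, 6.496 and 6.512 in the Aft mutant, 4.36 and 4.0 in the atv mutant, and 6.84 and 6.60 in the double mutant. It was lowest in the atv mutant and highest in the double mutant, with an interaction of 1.52 (SE 0.24, adjusted p = 0.00635, limma). The call was lost with intensities as deposited, at 1.27, and with floors of 1 and 64. THM6 had an interaction of -0.51 (adjusted p = 0.0976), THM27 of -0.34 (adjusted p = 0.625) and THM16, near the floor on all arrays, of -0.22 (adjusted p = 0.253, limma).

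The phenylpropanoid list, on the route that feeds the flavonoid pathway and makes phenolic amides and lignin precursors, had 2 negative calls among 5 measured genes and no positive call. Over all tested probe sets 12.7% had a negative call and 13.5% a positive one. Both negative calls of the list were tyramine hydroxycinnamoyl transferases, which make phenolic amides in wounded tissue. THT7-8 was near the floor except in the atv mutant, at 6.58 and 5.79, with an interaction of -2.19 (SE 0.34, adjusted p = 0.00586, limma). THT7-1 was lowest in the double mutant, at 8.48 and 8.32 against 9.58 to 10.60 on the other arrays. Its interaction was -1.03 (SE 0.29, adjusted p = 0.0467, limma). That call was lost in 10 of 18 alternatives, among them intensities as deposited, at -1.16 (adjusted p = 0.165, limma). CCR1, cinnamoyl-CoA reductase of lignin synthesis, had an interaction of 0.30 (adjusted p = 0.338, limma).

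The strongest positive interactions belonged to defence proteins that were abundant in every genotype except the atv mutant. In the defence and wound list, 8 of 37 measured genes had a positive interaction, 13 a negative one and 16 were not called, where 13.5% of all tested probe sets were positive and 12.7% negative. The median of the list was 0.10, as over all tested probe sets. NP24-I, an osmotin-like protein of the thaumatin family, read 13.25 and 13.24 in the wild type, 12.96 and 12.95 in the Aft mutant, 4.48 and 4.52 in the atv mutant, and 12.70 and 12.67 in the double mutant. In intensity it fell from 9715 in the wild type to 22.6 in the atv mutant, and stood at 6587 in the double mutant. The interaction was 8.48 (SE 0.12, adjusted p = 2.8e-06, limma), the most positive on the array.

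ER1, an ethylene-responsive proteinase inhibitor, followed the same course, at 12.55 and 12.46, 12.28 and 12.29, 4.17 and 4.01, and 12.04 and 11.92 in the same order of genotypes. Only the atv arrays were low, and the interaction was 8.11 (SE 0.15, adjusted p = 3.09e-06, limma). GluB, a basic glucanase, and CHI9, a basic chitinase, both act on fungal cell walls. GluB read 6.36 and 6.92 in the atv mutant against 12.83 to 13.64 elsewhere, with an interaction of 6.60 (SE 0.27, adjusted p = 5.3e-05, limma). CHI9 read 9.18 and 9.55 against 13.62 to 13.70 elsewhere, with an interaction of 4.26 (SE 0.19, adjusted p = 7.68e-05, limma). For these 4 genes the atv effect in the Aft background lay between -0.38 and -0.01, and none of those effects was called.

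The 13 negative calls of the list ranged from -5.42 for PIIF to -0.45 for HPL. PIIF, a wound-induced proteinase inhibitor, read 5.54 and 5.11 in the wild type, 8.13 and 7.91 in the Aft mutant, 10.53 and 9.80 in the atv mutant, and 7.38 and 7.48 in the double mutant. Both single mutants exceeded the wild type, by 2.69 and 4.84, and the double mutant lay below both, with an interaction of -5.42 (SE 0.37, adjusted p = 0.000257, limma). PR1b1, a pathogenesis-related protein, and ARG2, a wound-inducible arginase, were likewise lowest in the wild type, with interactions of -3.19 (adjusted p = 0.000321) and, for the brightest ARG2 probe set, -1.92 (adjusted p = 0.000252, limma). Other ARG2 probe sets were at -2.46 (adjusted p = 0.000126) and -0.74 (adjusted p = 0.095, limma). The lipoxygenase loxD and allene oxide synthase AOS, which act early in jasmonate synthesis, had interactions of -1.36 (adjusted p = 0.0107) and -1.07 (adjusted p = 0.0433, limma). Calls of MPK3, CEVI57, HPL, OPR3 and NPR1 in this list were lost with intensities as deposited.

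**Figure D4:**
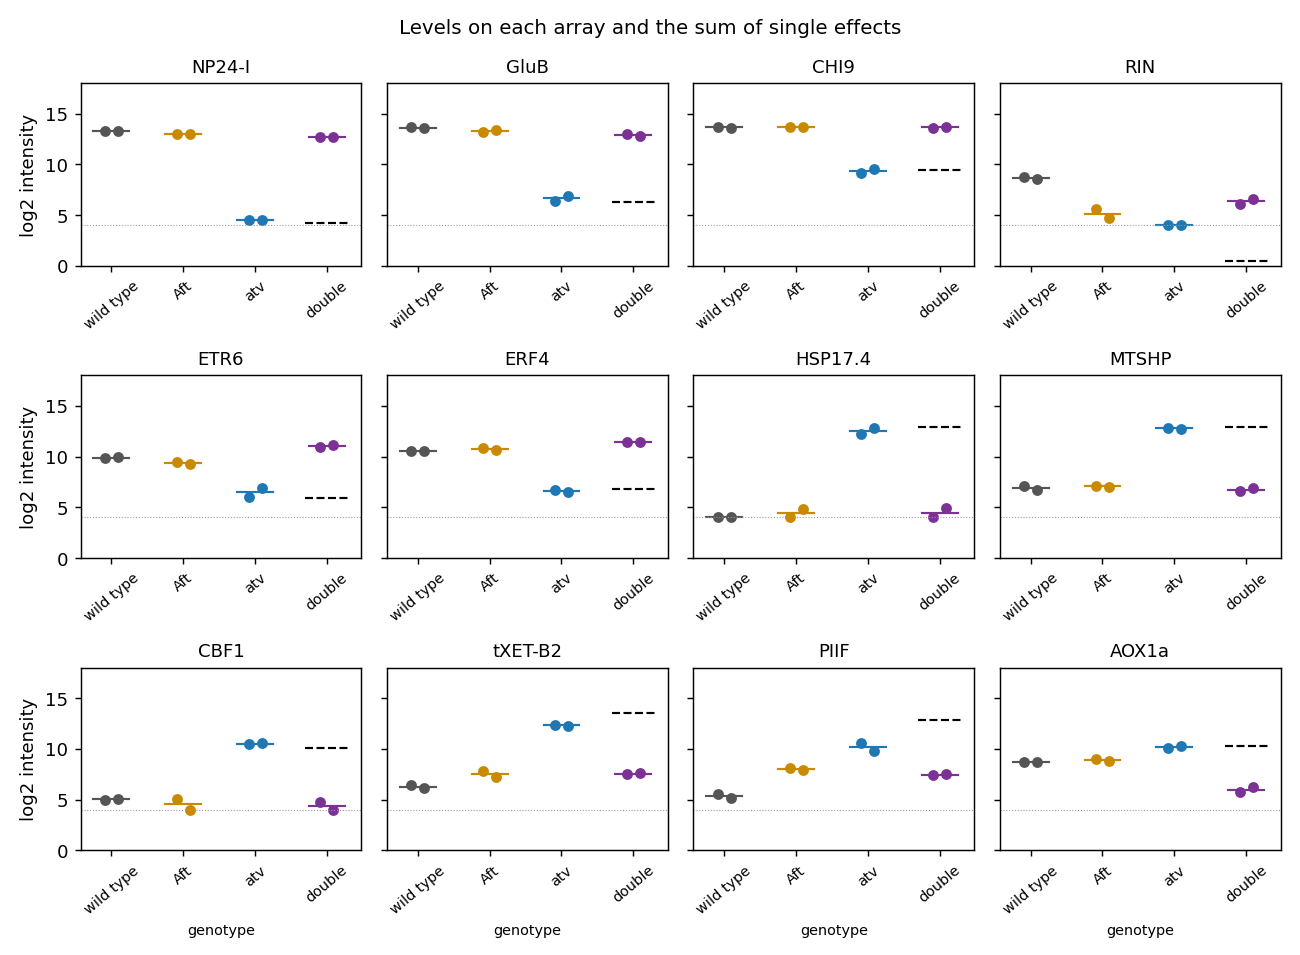
Log2 intensity (y axis) of 12 named genes on each array by genotype (x axis); points are arrays, short coloured lines genotype means, dashed black lines the double mutant expected from the sum of log2 effects, and the dotted line the floor. In NP24-I, GluB, CHI9, RIN, ETR6 and ERF4 the double mutant lies above its dashed line, by 4.26 to 8.48, and in HSP17.4, MTSHP, CBF1, tXET-B2, PIIF and AOX1a below it, by 4.36 to 8.43.

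Ripening and ethylene genes had more positive than negative calls. Of 47 measured members 19 were positive, 6 negative and 22 not called. Over all tested probe sets 13.5% were positive and 12.7% negative, so the negative count is near that of all genes. The median interaction was 0.40 against 0.10 over all tested probe sets. With intensities as deposited 11 of 46 measured members were positive and 6 negative, in a fit that called 1086 probe sets, 30.3% of them positive. Fruit ripening in tomato is driven by the gas ethylene, made from ACC by ACC oxidases, sensed by receptors that repress the pathway through CTR kinases, and carried on by EIN3-like and ERF transcription factors. RIN is a MADS-box factor needed for ripening to start.

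RIN read 8.74 and 8.52 in the wild type, 5.58 and 4.71 in the Aft mutant, the floor of 4.0 on both atv arrays, and 6.13 and 6.59 in the double mutant. Both single mutants were lower than the wild type and the double mutant lay between. The interaction was 5.85 (SE 0.42, adjusted p = 0.000319, limma), which is a lower bound because the atv mutant was at the floor. NOR, another factor needed for ripening, had an interaction of -0.23 (adjusted p = 0.27, limma).

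Of 6 ethylene receptors measured, 4 had a positive interaction and none a negative one, against 13.5% and 12.7% of all tested probe sets. ETR6 read 9.81 and 9.98 in the wild type, 9.42 and 9.25 in the Aft mutant, 5.97 and 6.94 in the atv mutant, and 10.96 and 11.15 in the double mutant. It was lowest in the atv mutant and highest in the double mutant, with an interaction of 5.16 (SE 0.42, adjusted p = 0.000526, limma). ETR5 followed at 2.53 (adjusted p = 0.00108), ETR4 at 1.94 (adjusted p = 0.000954) and ETR3 at 0.82 (adjusted p = 0.0361, limma). ETR3 was not called with intensities as deposited or after median scaling. ETR1 and ETR2 were at 0.41 and 0.16 and were not called.

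Downstream of the receptors, CTR1 and CTR4 had interactions of 1.23 and 1.303 and CTR3 of 0.15, and the CTR calls were lost with intensities as deposited, where CTR3 turned to -0.06. All 4 EIN3-like genes measured, EIL1 to EIL4, had a positive call at 0.68 to 1.34, against 13.5% of all tested probe sets. With intensities as deposited they stayed positive, at 0.57 to 1.25, and 2 of the 4 calls were kept. Among ERF factors, ERF4 read 10.59 and 10.58 in the wild type, 10.88 and 10.67 in the Aft mutant, 6.74 and 6.51 in the atv mutant, and 11.39 and 11.43 in the double mutant. Its interaction was 4.59 (SE 0.17, adjusted p = 5.02e-05, limma). ERF2 was at 1.17, a call lost with intensities as deposited, while ERF3 moved the opposite way, highest in the atv mutant at 11.64 and 11.74, with an interaction of -1.71 (adjusted p = 0.000637, limma).

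On the side of ethylene synthesis, ACO5, an ACC oxidase, was near the floor in the atv mutant at 4.25 and 4.04. It read 8.01 and 7.80 in the wild type, 8.81 and 8.49 with Aft alone, and 9.38 and 9.48 with both alleles. Only the atv arrays were low, with an interaction of 4.54 (SE 0.22, adjusted p = 8.51e-05, limma). The ACC oxidases ACO4 and ACO6 were at 0.38 and -0.12 and were not called. The ACC synthases, which make the precursor, went both ways. ACS1A and ACS3 had negative interactions of -1.73 (adjusted p = 0.00616) and -1.98 (adjusted p = 0.00339, limma). ACS2 had a positive one of 1.06 (adjusted p = 0.00841, limma), a call lost with intensities as deposited and after median scaling. ACS4 was at 1.42 (adjusted p = 0.052, limma) and was called with intensities as deposited, at 1.07 (adjusted p = 0.0371, limma), while ACS6, ACS7 and ACS8 lay between -0.12 and -0.10 and were not called. ER24, a member of the MBF1 family of coactivators, was the most negative of the list. It read 12.76 and 12.77 in the atv mutant against 8.18 to 9.0 on the other arrays, with an interaction of -4.77 (SE 0.19, adjusted p = 5.02e-05, limma).

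Every measured gene of the heat shock list had a negative interaction, 7 of 7, against 12.7% of all tested probe sets. The median of the list was -6.51. The same 7 of 7 were called with intensities as deposited, at a median of -6.495. Small heat shock proteins hold unfolded proteins in solution and are usually low without stress. HSP17.4 was at the floor on both wild-type arrays, at 4.0 and 4.79 with Aft alone, at 4.0 and 4.96 with both alleles, and at 12.24 and 12.79 in the atv mutant. Only the atv mutant was high, with an interaction of -8.43 (SE 0.56, adjusted p = 0.000228, limma).

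Small heat shock proteins of separate compartments behaved alike. HSP21, of the chloroplast, read 11.06 and 11.36 in the atv mutant against 5.02 to 6.55 elsewhere, with an interaction of -6.51 (adjusted p = 0.000112, limma). MTSHP, of mitochondria, read 12.86 and 12.70 against 6.56 to 7.13 elsewhere, with an interaction of -6.19 (adjusted p = 5.02e-05, limma). ER-SHSP, of the endoplasmic reticulum, read 10.92 and 10.99 against 4.0 to 4.24 elsewhere, and vis1, of the same protein class, 10.54 and 10.24 against 4.0 to 5.02. Their interactions were -6.83 (adjusted p = 8.32e-06) and -6.99 (adjusted p = 5.34e-05, limma). HSP17-6, abundant in all genotypes at 10.51 to 13.62, had an interaction of -3.17. ER21, the remaining gene of the list and not counted here among the small heat shock proteins, was at -3.11.

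Among cold and drought genes, 3 of 7 had a negative interaction and 1 a positive one, against 12.7% and 13.5% of all tested probe sets. With intensities as deposited the counts were 2 and 0, in a fit with fewer calls (1086, 30.3% of them positive). CBF1, a transcription factor that cold induces, read 4.95 and 5.08 in the wild type, 5.08 and 4.0 in the Aft mutant, 10.46 and 10.58 in the atv mutant, and 4.72 and 4.0 in the double mutant. Only the atv mutant was high, and the interaction was -5.68 (SE 0.54, adjusted p = 0.000882, limma). DREB1, of the same family, was lowest in the wild type at 5.82 and 6.19 and had an interaction of -2.04 (adjusted p = 0.00253, limma). LE16, a lipid-transfer protein, was at -0.88 and DREB3 at 0.73, and both calls were lost with intensities as deposited.

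The genes of photosynthesis and of carotenoid synthesis had negative interactions or were not called. For photosynthesis the negative count was 4 of 10, against 12.7% of all tested probe sets, with a median of -0.43. With intensities as deposited it was 1 of 10, in a fit that called 1086 probe sets, 30.3% of them positive. CAB5, a chlorophyll-binding protein of the light-harvesting complex, read 11.25 and 11.22 in the wild type, 10.65 and 10.30 in the Aft mutant, 13.93 and 13.72 in the atv mutant, and 10.86 and 10.70 in the double mutant. Its interaction was -2.29 (SE 0.21, adjusted p = 0.000838, limma). POR2 of chlorophyll synthesis, the electron carrier PETE and CAB4 had interactions of -1.0, -0.83 and -0.73, and those are the calls lost with intensities as deposited.

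Of 15 carotenoid and abscisic acid genes, 8 had a negative interaction and none a positive one, against 12.7% and 13.5% of all tested probe sets, with a median of -0.80. With intensities as deposited the negative count was 6, in a fit with fewer calls (1086, 30.3% of them positive). The called genes span the pathway from its precursor supply (DXR, -0.80) through phytoene synthase (PSY2, -2.02) and desaturation (ZDS, -1.04) to the lycopene cyclases (CRTL-E-1, -1.93; LCY1, -0.91), the hydroxylase CrtR-b1 (-1.80), violaxanthin de-epoxidase (VDE, -2.78) and a cleavage enzyme (CCD1B, -1.39). VDE read 8.02 and 8.17 in the wild type, 8.19 and 8.63 in the Aft mutant, 10.86 and 11.18 in the atv mutant, and 8.52 and 8.59 in the double mutant. The atv mutant was the highest for each of the 8. VDE had a further probe set with an interaction of -2.79. Calls of LCY1 and DXR were lost with intensities as deposited.

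Of 36 cell wall genes 5 were positive and 7 negative, and 2 and 5 with intensities as deposited. In the reported fit the counts are near the shares of all tested probe sets, 13.5% and 12.7%, and are no result about the list. The counts as deposited come from a fit with fewer calls. The most negative members were xyloglucan endotransglucosylases, which cut and rejoin the xyloglucan that ties cellulose together. tXET-B2 read 6.44 and 6.13 in the wild type, 7.81 and 7.19 in the Aft mutant, 12.39 and 12.21 in the atv mutant, and 7.51 and 7.58 in the double mutant. The Aft allele raised it by 1.21 in the wild-type background and lowered it by 4.75 in the atv background, with an interaction of -5.97 (SE 0.31, adjusted p = 0.000111, limma). XTH3 was at -5.19 (adjusted p = 0.000128) and LeXTH9 at -3.52 (adjusted p = 0.0101, limma). Other members of the family had positive calls, XTH6 at 0.89 (adjusted p = 0.0091) and XTH16 at 1.34 (adjusted p = 0.0249, limma), both lost with intensities as deposited. TBG4, a beta-galactosidase that trims wall galactans, was lowest in the atv mutant at 7.88 and 7.71 against 9.43 to 10.45 elsewhere, with an interaction of 2.30 (SE 0.15, adjusted p = 0.000239, limma).

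In the sugar and starch list 6 of 22 genes were positive and 4 negative, against 13.5% and 12.7% of all tested probe sets in the reported fit. The counts were 4 and 3 with intensities as deposited, in a fit with fewer calls (1086, 30.3% of them positive). AI, the vacuolar acid invertase that splits stored sucrose, read 13.49 and 13.55 in the wild type and 13.48 and 13.51 in the double mutant. It was lower in both single mutants, at 12.48 and 12.56 with Aft and at 12.26 and 12.49 with atv, with an interaction of 2.12 (SE 0.16, adjusted p = 0.000349, limma). HT1, a hexose transporter, was at 2.53 (adjusted p = 0.000596) and AGPL3, a subunit of the enzyme that starts starch synthesis, at -2.58 (adjusted p = 0.000187, limma). TPP3, 1 of the 4 negative genes, entered the list by its symbol, which in tomato is also that of a thionin-like protein of the flower, so its place in the list is doubtful. It read 4.0 and 4.09 in the wild type, 5.97 and 6.07 in the Aft mutant, 8.97 and 8.75 in the atv mutant, and 5.93 and 6.18 in the double mutant. The double mutant overlapped the Aft mutant and both lay between the wild type and the atv mutant, and the interaction was -4.77 (SE 0.19, adjusted p = 5.02e-05, limma).

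Of the auxin, gibberellin and light lists, all with under 10 measured genes, auxin had 2 calls, gibberellin 3 and light and clock 3, against 26.1% called over all tested probe sets. For auxin, 1 of 8 genes was positive (ARPI, 2.86, adjusted p = 0.00106) and 1 negative (IAA3, -1.57, adjusted p = 0.0173, limma). The IAA3 call was lost in 6 of 18 alternatives, among them intensities as deposited. Another IAA3 probe set was at -1.33 and was not called (adjusted p = 0.208, limma). IAA16, like IAA3 a repressor of auxin responses, was at -1.20 (adjusted p = 0.0545, limma). For gibberellin, 2 of 4 were positive and 1 negative. GA20OX1, an oxidase of gibberellin synthesis, was measured above 4.33 in the Aft mutant alone, at 6.09 and 6.15, with an interaction of -2.07 (SE 0.21, adjusted p = 0.00107, limma). Its call was lost with floors of 1 and 64. GAI, the DELLA repressor of gibberellin responses, was at 1.16 and the oxidase 20ox-3 at 0.65, the latter lost with intensities as deposited.

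For light and clock genes, 3 of 9 were positive and none negative, against 13.5% and 12.7% of all tested probe sets. With intensities as deposited 1 of 9 was positive, in a fit with fewer calls (1086, 30.3% of them positive). LePCL1, named after a clock gene of Arabidopsis, was low in the atv mutant at 4.78 and 5.42 against 8.49 to 9.44 elsewhere, with an interaction of 3.85 (SE 0.30, adjusted p = 0.000439, limma). The photoreceptor CRY2 was at 1.01 and COP1, which represses light responses, at 0.85, and both calls were lost with intensities as deposited. HY5, the factor that COP1 removes in the dark, was at -0.12 (adjusted p = 0.62, limma). TCP3, a transcription factor outside the lists, was at 6.68 and 5.68 in the atv mutant against 9.32 to 9.97 elsewhere, with an interaction of 3.58 (SE 0.49, adjusted p = 0.00366, limma).

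The redox list had 3 positive and 3 negative calls among 12 genes, against 13.5% and 12.7% of all tested probe sets. CAT2, a catalase, was higher in the atv mutant, at 13.44 and 13.41 against 11.49 to 11.59 elsewhere, with an interaction of -1.87 (SE 0.13, adjusted p = 0.000272, limma). AOX1a and ODD are described with the double mutant, and of the positive calls (Wfi1, RBOH1, GPXle-2) those of RBOH1 and GPXle-2 were lost with intensities as deposited. Of 3 reference genes, ACT and RPL8 were not called, at 0.06 (adjusted p = 0.771) and 0.18 (adjusted p = 0.431), and ACT turned to -0.01 with intensities as deposited. TUB, a tubulin, was at 0.49 (adjusted p = 0.0326, limma), a call lost with intensities as deposited.

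**Figure D5:**
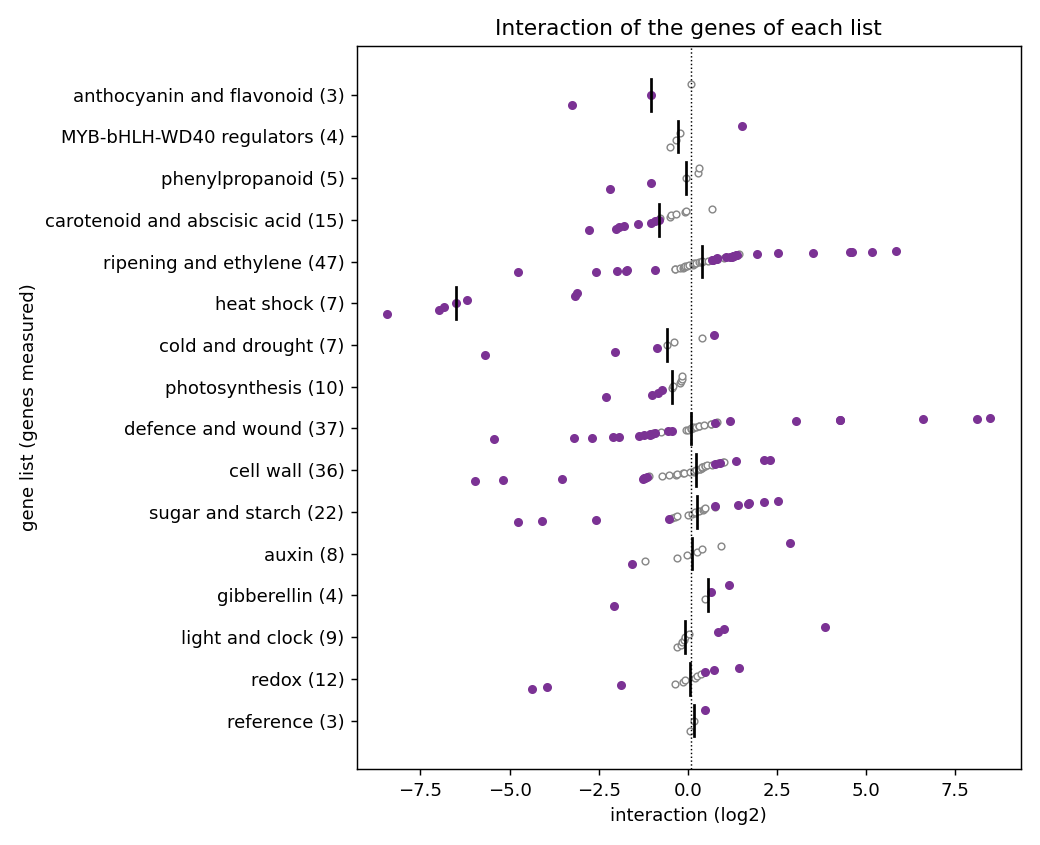
Interaction (x axis, log2) of each measured gene of the 16 gene lists (y axis, with the number of genes); filled points were called, open points were not, vertical bars mark list medians and the dotted line the median of all tested probe sets, 0.10. All 7 heat shock genes lie left of -3.0, no carotenoid or photosynthesis gene has a positive call, and the defence list reaches from -5.42 to 8.48.

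Some genes responded to an allele in opposite directions depending on the other allele. The atv effect was at least 1 in both backgrounds with opposite signs for 57 probe sets (0.6% of those tested), all of them called. For the Aft effect there were 60 (0.632%), of which 59 were called. Over all tested probe sets 26.1% were called. Both patterns require a large interaction, so a call is largely set by their definition. ICL, isocitrate lyase of the glyoxylate cycle, fell by 3.09 with atv in the wild-type background and rose by 1.36 in the Aft background. It read 10.46 and 10.56 in the wild type, 10.03 and 9.92 in the Aft mutant, 7.05 and 7.78 in the atv mutant, and 11.32 and 11.36 in the double mutant. Its interaction was 4.46 (SE 0.32, adjusted p = 0.000319, limma).

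TSI-1, a pathogenesis-related protein, was lower than the wild type in both single mutants and higher in the double mutant. It read 6.79 and 6.31 in the wild type, 5.14 and 5.39 in the Aft mutant, 4.76 and 4.59 in the atv mutant, and 7.71 and 7.62 in the double mutant. The interaction was 4.27 (SE 0.26, adjusted p = 0.000171, limma). loxC, a lipoxygenase of flavour volatiles, had the same order in the single mutants, at 6.26 and 5.86 with Aft and 5.40 and 5.58 with atv against 8.03 and 7.79 in the wild type. The double mutant recovered to 7.29 and 7.03, and the interaction was 3.52 (SE 0.26, adjusted p = 0.00033, limma).

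For a smaller set the double mutant stood alone. In 108 of those 157 calls it was the highest genotype and in 49 the lowest. The 13 with an informative symbol were chosen after their values were seen, apart from AOX1a, ODD and THT7-1. AOX1a, the alternative oxidase of mitochondrial respiration, read 8.74 and 8.70 in the wild type, 8.98 and 8.77 in the Aft mutant, 10.07 and 10.26 in the atv mutant, and 5.71 and 6.21 in the double mutant. It rose with atv alone and was lowest when both alleles were present, with an interaction of -4.36 (SE 0.26, adjusted p = 0.000168, limma).

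ODD read 9.25 and 9.22 in the wild type, 10.13 and 10.23 in the Aft mutant, 8.003 and 8.01 in the atv mutant, and 4.78 and 5.19 in the double mutant. The fall with atv was 1.23 without Aft and 5.19 with it, and the interaction was -3.96 (SE 0.21, adjusted p = 0.000112, limma). pip1 and CHI3, an acidic chitinase, were also lowest in the double mutant, with interactions of -2.09 each (adjusted p = 0.00504 and 0.000609, limma). RNALE, CEVI-1, Dea1, ETR3 and DREB3 were highest in the double mutant, at 0.73 to 1.79. CEVI-1, a peroxidase, was at the floor on all arrays but those of the double mutant, at 5.41 and 4.94. OPR3, AGP-S2 and HPL were lower in the double mutant, with interactions of -0.56, -0.52 and -0.45, and all 3 calls were lost with intensities as deposited and after median scaling.

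Where both alleles moved a transcript the same way, the double mutant mostly fell short of the sum. Both single mutants differed from the wild type by at least 1 in the same direction for 164 probe sets. In 159 of them the double mutant fell short of the log2 sum, 122 of these were called, and in 5 it went beyond, none of them called. Over all tested probe sets 26.1% were called. For some genes the sum lay outside the measured range, so the double mutant could only fall short. It was under the floor of 4 for RIN (0.51), TSI-1 (3.39) and loxC (3.64). It was above 14.32, the highest value on any array, for CHS1 (16.36), PR1b1 (14.49) and DFR (14.38). Both single effects share the wild-type arrays, so an error in those arrays moves both the same way and the double mutant short of the sum. The interaction was under 0.5 in 9 of the 164. A single gene with an informative symbol was among them, LOXB, a lipoxygenase, at 10.996 and 11.09 in the wild type, 8.69 and 8.44 in the Aft mutant, 9.40 and 9.58 in the atv mutant, and 7.01 and 6.95 in the double mutant. It fell by 1.56 with atv in the wild-type background and by 1.58 in the Aft background, with an interaction of -0.03 (SE 0.18, 95% interval -0.46 to 0.41, adjusted p = 0.935, limma).

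The most extreme probe sets without regard to name were NP24-I and ER1 on the positive side, and on the negative side HSP17.4 and a probe set with no gene symbol in the annotation. That probe set read 4.29 and 4.0 in the wild type, 5.73 and 5.09 in the Aft mutant, 11.69 and 11.32 in the atv mutant, and 4.0 and 4.04 in the double mutant. Only the atv mutant was high, and the interaction was -8.75 (SE 0.34, adjusted p = 5.02e-05, limma). Its size depends on the floor. Over the alternatives it ranged from -9.03 to -5.50, and that of HSP17.4 from -9.35 to -6.52. MTSHP, above the floor on all arrays, stayed between -6.37 and -6.00, so the order on the negative side depends on the setting. Since 909 of 10209 probe sets carry a symbol, the lists describe the named part of each pathway.

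Markers of other tissues were measured beside these results. Of the cuticle and epidermis list 4 genes were measured, at a mean of 10.1 to 11.2 on the 8 arrays, with 1 positive call (TPRP-F1, 2.13) and 1 negative (LE16). Both vascular markers measured, SUT2 and TLRP, averaged 11.04 to 11.07 in the wild type, 12.1 in the Aft mutant, 10.5 to 10.7 in the atv mutant and 12.2 to 12.3 in the double mutant, and SUT2 had an interaction of 0.76 (adjusted p = 0.0096, limma), a call lost with intensities as deposited. ICL, the seed marker measured, had the interaction of 4.46 given above, and MAN2, another of that list, was under the floor on all arrays. The trichome marker MTS1 was at or near the floor on all arrays. In bulk peel, fewer cells of a type and less RNA per cell cannot be told apart, and the part of tissue composition in the results was not tested.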

How the data were processed

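Peel RNA of 8 samples was hybridised to 1 Affymetrix Tomato Genome Array each. The deposited values are linear intensities, 1 per probe set and array. Per the submitters' processing notes GCRMA was used, with no version; the scale of the deposited intensity is not stated in the labels. The arrays' medians differ, so the deposited intensities were quantile-normalized, set to at least 16, and taken to log2. Control probe sets and those above the floor on fewer than 2 arrays were left out.

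Genotype means were fitted with limma 3.58.1 in R 4.3.3 over all 8 arrays (4 residual and 2.28 prior degrees of freedom). The interaction and the 4 single-allele effects came from that fit, 2-sided, with Benjamini-Hochberg adjustment over 9493 probe sets and a threshold of 0.05. The number of arrays limits the precision. Errors are standard errors from limma. The fit was tested on simulated data.

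Symbols came from the platform annotation (909 probe sets, none with several symbols; 885 were matched by gene identifier to the RefSeq gene table of assembly SLM_r2.1). The lists count 1 probe set per gene, the brightest. Named genes were up to 12 with the most positive and 12 with the most negative called interaction, all flavonoid and MYB genes, from each remaining list the 3 genes of lowest p, additive and opposite-effect examples, and the 2 most extreme probe sets on each side. Other list members and genes are named after their values were seen. The members and lists were chosen with earlier results of these data known. No sequences were used. Alternatives covered the scaling, floor, filter, variance prior, a threshold on size, bright probe sets, the replicate number as a block, and leaving out each array.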

Additional observations from a re-analysis of the deposited data

Results flagged for a closer look

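The atv effect differed between the Aft backgrounds for 2479 probe sets by the interaction test of limma. Genes with an informative symbol and a called interaction were then taken for which an allele had effects of at least 1 in opposite directions. For each allele these were the 6 with the largest interaction. Since they were chosen for a large called interaction, that call is no separate support for them. For atv these were HSP21 (interaction -6.51), RIN (5.85), ETR6 (5.16), ICL (4.46), AOX1a (-4.36) and TSI-1 (4.27). For Aft they were tXET-B2 (-5.97), RIN, PIIF (-5.42), TPP3 (-4.77), TSI-1 and loxC (3.52). Other genes met the same condition with smaller interactions, among them loxC, ER21 and ARPI for atv and PR1b1, ARPI and AI for Aft. For HSP21 the atv effect in the Aft background was -1.03 and was not called (adjusted p = 0.064, limma), and for RIN it was 1.22 (adjusted p = 0.0696, limma), so the opposite sign there rests on the means.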

How the results depend on the processing

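The number of probe sets with an interaction was 2479, 1086 with intensities as deposited and 454 when tested against a log2 interaction of 1 (treat). It ranged from 1462 to 2872 as each array was left out. The other alternatives gave 2085 to 2786, within 1.5 times of the reported count. Of the 1086, 1056 (97.2%) were among the reported calls and none of these had the opposite sign. The share of positive calls, 51.6%, was 30.3% as deposited, 49.0% after median scaling, 53.7% with all probe sets, 39.2% under treat, and 43.2% to 54.4% with 1 array left out. Deviations from group means at the same replicate number correlated at -0.07 to 0.35, with 0.35 for the atv mutant and wild type. Whether that number marks paired samples was not tested. With the replicate number as a block 2452 probe sets were called, 51.0% positive. Of 62 named probe sets 53 were called, and 41 of these in every alternative but treat. With intensities as deposited 10 were lost. The direction turned for DFR with a floor of 64 (0.96) and in linear intensity (8552); for LOXB in linear intensity (1140) and with 1 array left out (-0.14 to 0.090); for THM27 (-0.82 to 0.15) and CHS2 (-0.0082 to 0.16) with 1 array left out; and as deposited for CHS2 (-0.040), ACT (-0.0075) and CCR1 (-0.0021). For LOXB the linear sum is a negative intensity (-1013), so its linear value is positive at any level of the double mutant. The causes of the other turns were not tested. Leaving out an array assumes that the remaining sample of that genotype varies like the others. Levels at the floor and near the top of the range limit the size of an interaction.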

Other observations

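Some genes with a called interaction stood outside the lists and were chosen after their values were seen. In 117 calls the wild type stood alone, and 18 of these had an informative symbol, 10 with the wild type lowest and 8 with it highest. Among the lowest, adc1, arginine decarboxylase, read 9.36 and 9.28 in the wild type against 9.93 to 10.55 elsewhere, with an interaction of -1.63 (SE 0.17, adjusted p = 0.00135, limma). Its other probe sets were at -1.54, -1.47 and, not called, -1.27. ODC, ornithine decarboxylase, had one of -1.26 (SE 0.33, adjusted p = 0.0353, limma). SUT4, a sucrose transporter, was highest in the wild type at 8.68 and 8.75 against 6.98 to 7.63 elsewhere, with an interaction of 1.69 (SE 0.16, adjusted p = 0.000803, limma), and its other probe set was at 1.53.

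The atv mutant stood alone for 132 informative symbols with a call, and 4 more of these are given as single genes, with no theme tested. ME2, a malic enzyme, was lowest in the atv mutant at 11.08 and 11.20 against 13.25 to 13.49 elsewhere (interaction 2.17, SE 0.14, adjusted p = 0.000204, limma). GS2, glutamine synthetase of the chloroplast, was highest there at 13.16 and 13.11 against 10.84 to 11.19 (interaction -1.76, SE 0.13, adjusted p = 0.000319, limma), as was gad2, glutamate decarboxylase, at 13.64 and 13.54 against 12.06 to 12.32 (interaction -1.49, SE 0.13, adjusted p = 0.000744, limma). PT1, a phosphate transporter, was lowest there at 6.94 on both arrays against 9.89 to 10.37 (interaction 2.96, SE 0.15, adjusted p = 9.34e-05, limma).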
